A study of Homo sapiens with 8 samples.

Results

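HSF1, the transcription factor of the heat shock response, and 9 chaperone or co-chaperone genes that it is known to control were followed across 8 two-colour expression arrays. The 10 genes (HSF1, HSPA1A, HSPA1B, HSPA8, HSPH1, HSP90AA1, HSPB1, HSPD1, DNAJB1 and BAG3) were taken by name from the 43317 genes of the array, with all of their 17 probes. Each array set RNA of a treated culture, labelled with Cy5, against mock RNA of the same cell line, labelled with Cy3, and each treatment had 1 array and no dye swap. The prostate cancer line PC3 received bisamide for 24 h, bisamide for 48 h or the microRNA miR-125b-1-3p. The prostate cancer line C4-2 received miR-199-3p, the renal cancer line 786-O received miR-532-5p or miR-532-3p, and the bladder cancer line T24 received miR-140-5p or miR-140-3p. MicroRNAs were introduced by lipid transfection. Mock cells are labelled as not transfected, so the mock and the treated cells of a miRNA array also differ in the transfection itself. Bisamide is a small molecule that the study used against PIR, an iron-binding nuclear protein. The study also describes it as an inhibitor of HSF1 stress pathways. It reports that most HSF1-mediated genes, taken from a pathway database entry for heat stress, were lower with bisamide. The labels list bisamide as a transfection and name no solvent for its mock. All cells were established cell lines, and no time after transfection is given in the labels.

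Under normal growth HSF1 is held inactive by the chaperones themselves. When unfolded proteins draw the chaperones away, HSF1 forms trimers, binds heat shock elements in promoters and switches on genes that refold or clear damaged proteins. Cancer cells are known to lean on the same factor without heat. In RNA of whole cultures, a lower signal from fewer expressing cells and one from less RNA per cell cannot be told apart.

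The agents on the 6 miRNA arrays are small RNAs that pair with messengers through their seed, bases 2 to 8 from the 5′ end. The mature sequences of the named miRNAs, from RefSeq with the annotation of GRCh38.p14, are shown with the seed in capitals because they define the 6 treatments. The labels do not say whether miR-199-3p was the product of the miR-199a or of the miR-199b gene, and RefSeq gives both the same mature sequence. The 6 seeds all differ.
miR-199-3p: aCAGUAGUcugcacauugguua
miR-125b-1-3p: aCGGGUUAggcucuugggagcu
miR-532-5p: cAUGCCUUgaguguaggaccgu
miR-532-3p: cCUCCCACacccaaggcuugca
miR-140-5p: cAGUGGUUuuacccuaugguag
miR-140-3p: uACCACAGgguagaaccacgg

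Before the ratios were read, the lines were checked against marker genes. KLK3 and KLK2, kallikrein genes of prostate cells, were well above background in the C4-2 mock, with a raw Cy3 intensity of 13592 for KLK3 there against 21.4 to 22.6 on the other arrays. The kidney markers PAX8 and PAX2 were above background in the 786-O mocks and also in the T24 mocks, where they were brighter, and CA9 was above background in no mock. Of the T24 markers, KRT7 was above background in all 4 lines and UPK2 and UPK1B in none. The markers therefore set C4-2 apart and did not tell 786-O from T24. No marker had been listed for PC3. Mock signals of the same line had correlations across genes of 0.991 to 0.9963 in PC3, 0.9985 in 786-O and 0.9993 in T24, against 0.8551 to 0.9265 between lines.

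All 10 genes were well above background in both channels on all 8 arrays, by the probe that stands for each, and no spot of theirs was saturated. Of the 17 probes, 16 met this on 8 arrays and 1 probe of HSF1 did so on 3. The value of an array is the log2 ratio of treated over mock RNA after loess normalization, a correction that fits the dye difference along the intensity scale. A gene was counted as higher or lower when that ratio passed 0.5 in size, which is a 1.41-fold difference, and with 1 array to a treatment no p-value exists for it. The only repeat within an array was of 300 probes printed as 10 spots. HSPA1A was among them, and the median standard deviation over such spots was 0.04 to 0.05 on the log2 scale. It covers the printing and hybridisation of 1 labelled RNA and not the spread between cultures.

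HSPA1A and HSPA1B encode the inducible HSP70, HSPA8 the constitutive HSP70 and HSPH1 the HSP110 that exchanges its nucleotide. Their probes lie at chr6:31785491-31785550 for HSPA1A, chr6:31797870-31797929 for HSPA1B, chr11:122929478-122929537 for HSPA8 and chr13:31710796-31710855 for the brighter probe of HSPH1, in coordinates of GRCh37 as the scanner files give them. HSPA1A and HSPA1B are near-identical copies, and how far their probes share signal was not tested. In the C4-2 mock the HSPA1A probe read a raw Cy3 intensity of 29.0 while the HSPA1B probe read 6579.

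Promoter windows of 9 of the 10 genes were found in the RefSeq table of GRCh38.p14, each covering 250 bases before and 50 after a start of transcription. HSP90AA1 and HSPD1 had 2 windows and DNAJB1 3. The heat shock element was searched as GAANNTTC and as TTCNNGAA, each its own reverse complement, and in the longer form GAANNTTCNNGAA with its reverse complement TTCNNGAANNTTC, which contains both short forms. Of 13 windows of the members, 8 held a short form, against 13.5% of all 35116 windows. The longer form stood in 3 of the 13, those of HSPA8, HSP90AA1 and HSPD1, against 0.49% of all windows. HSPB1 and DNAJB1 held the short form, and the windows of HSPH1 and BAG3 did not hold these letters. The windows of the 6 genes that passed 0.5 in log2 ratio on an array are printed, for genes with several windows the one with the most matches, with every match in capitals. Overlapping matches run together.
HSPA1A (chr6:31815293-31815592, plus strand): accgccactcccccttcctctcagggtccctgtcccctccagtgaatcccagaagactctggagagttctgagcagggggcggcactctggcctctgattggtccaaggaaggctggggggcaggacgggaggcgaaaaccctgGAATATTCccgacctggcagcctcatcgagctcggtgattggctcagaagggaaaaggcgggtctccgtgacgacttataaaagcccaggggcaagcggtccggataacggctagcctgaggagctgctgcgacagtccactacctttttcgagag
HSPA1B (chr6:31827488-31827787, plus strand): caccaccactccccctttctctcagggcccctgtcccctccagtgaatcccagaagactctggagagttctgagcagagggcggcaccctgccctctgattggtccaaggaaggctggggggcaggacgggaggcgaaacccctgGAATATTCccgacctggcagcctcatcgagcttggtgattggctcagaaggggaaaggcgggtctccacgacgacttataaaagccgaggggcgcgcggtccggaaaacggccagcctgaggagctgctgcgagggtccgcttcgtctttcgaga
HSPA8 (chr11:123062087-123062386, minus strand): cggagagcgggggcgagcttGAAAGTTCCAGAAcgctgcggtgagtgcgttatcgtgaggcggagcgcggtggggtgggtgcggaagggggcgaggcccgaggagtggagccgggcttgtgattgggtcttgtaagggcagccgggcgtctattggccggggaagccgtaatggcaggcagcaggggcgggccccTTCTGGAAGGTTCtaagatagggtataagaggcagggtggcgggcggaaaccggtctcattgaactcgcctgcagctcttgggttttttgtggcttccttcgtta
HSP90AA1 (chr14:102086995-102087294, minus strand): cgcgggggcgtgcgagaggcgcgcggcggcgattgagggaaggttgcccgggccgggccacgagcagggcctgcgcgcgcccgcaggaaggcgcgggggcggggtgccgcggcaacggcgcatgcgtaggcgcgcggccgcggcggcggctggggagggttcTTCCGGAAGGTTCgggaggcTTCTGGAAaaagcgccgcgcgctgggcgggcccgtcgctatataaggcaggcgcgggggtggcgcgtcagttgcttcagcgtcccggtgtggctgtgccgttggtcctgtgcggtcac
HSPD1 (chr2:197499791-197500090, minus strand): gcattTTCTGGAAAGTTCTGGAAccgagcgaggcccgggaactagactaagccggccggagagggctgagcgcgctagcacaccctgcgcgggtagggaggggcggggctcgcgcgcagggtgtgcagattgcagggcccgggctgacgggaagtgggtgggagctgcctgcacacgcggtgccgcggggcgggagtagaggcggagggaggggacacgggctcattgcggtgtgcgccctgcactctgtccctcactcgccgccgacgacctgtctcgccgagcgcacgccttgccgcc
DNAJB1 (chr19:14518348-14518647, minus strand): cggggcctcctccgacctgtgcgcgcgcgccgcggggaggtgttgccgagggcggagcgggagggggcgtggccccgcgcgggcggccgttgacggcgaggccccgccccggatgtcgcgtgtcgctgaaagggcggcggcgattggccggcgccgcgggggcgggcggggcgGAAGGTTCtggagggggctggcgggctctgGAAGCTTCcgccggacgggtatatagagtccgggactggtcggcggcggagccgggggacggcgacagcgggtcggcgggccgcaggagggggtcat
The windows of HSPA1A and HSPA1B, aligned with a shift of 1 base, were equal at 277 of 299 bases, or 92.6%, and the only match in each was the same 8 letters, from 106 to 99 and from 105 to 98 bases before the start. HSPD1 held the longest run, 18 bases with 4 units, and HSPA8 and HSP90AA1 runs of 13 bases with 3 units. DNAJB1 held 2 separate short forms. A match describes the letters alone, and binding of HSF1 was not measured.

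With bisamide for 24 h in PC3, HSPA1A was the member counted as lower than in mock. HSPA1A was at −0.60, HSPA8 at −0.47, HSPA1B at −0.39 and HSPH1 at −0.37 on the log2 ratio scale. The HSPA1A value was 1.52-fold lower, and its 10 spots lay between −0.69 and −0.50. Few genes of this array lay below these 4: 0.14% for HSPA1A, 0.561% for HSPA8, 1.16% for HSPA1B and 1.33% for HSPH1. HSPD1, the mitochondrial HSP60, was at −0.33, DNAJB1, the HSP40 that feeds substrates to HSP70, at −0.20, and HSP90AA1, the inducible HSP90, at −0.15. HSPB1, the small heat shock protein HSP27, was at −0.06. BAG3, the HSP70 partner that directs clients to autophagy, was at 0.01, and HSF1 itself at 0.04.

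The 10 genes thus had a median log2 ratio of −0.27 at 24 h, with 8 of 10 below 0, beside a median of 0.01 and 45.8% below 0 over the 19248 genes measured. HSPA1A alone passed 0.5 downwards, where 0.4% of all genes did. None passed it upwards, where 1.05% did. These shares depend on the background step. With normexp without offset 619 of the 19248 genes were lower and 591 higher, and with the scanner's ratio 964 and 731, and HSPA1A was again the 1 member past 0.5 under both. The HSPH1 probes gave −0.37 and −0.50, the 3 HSP90AA1 probes −0.15, −0.25 and −0.39, and the 3 HSPB1 probes −0.06, −0.13 and −0.29. In HSP90AA1 and HSPB1 the probe standing for the gene was the one nearest 0.

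At 48 h most of these differences were smaller. HSPA1A was at −0.02 and HSPA1B at −0.01, and the 10 HSPA1A spots lay between −0.05 and 0.04, apart from those at 24 h. HSPA8 was at −0.13 and HSPH1 at −0.26. HSPD1 was the lowest, at −0.40, and HSP90AA1 was at −0.15 by its brightest probe and at −0.39 and −0.42 by the others. HSPB1 was at −0.03, DNAJB1 at 0.02, HSF1 at 0.06 and BAG3 at 0.06. The median was −0.02, with 7 of 10 below 0, against a median of 0.01 and 45.8% below 0 over all genes. No member passed 0.5, where 0.878% of all genes were lower and 0.92% higher. The 24 h and 48 h arrays had different treated and mock RNAs, and the difference between the times could not be tested with 1 array of each.

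The direction of most of these values rests on the dye correction. When each array was only centred on the median of its spots, with no correction along the intensity scale, the median of all genes moved to 0.45 at 24 h and 0.44 at 48 h. Set against that shift, HSPA1A stayed below at 24 h, at −0.23, and HSPA1B and HSPA8 were at −0.03, while the other 7 members lay above the median of all genes. Past 0.5 there were then 5 genes lower and 8643 higher of the 19248 at 24 h, against 77 and 202 after loess, and 5 lower and 8352 higher of the 19023 at 48 h, against 167 and 175. Of the 10, 6 thus changed sides at 24 h and 7 at 48 h. The scanner's own ratio, which also corrects the dyes, gave −0.58 for HSPA1A, −0.40 for HSPA8 and −0.39 for HSPA1B at 24 h. Which correction is nearer the truth was not tested, since no array was hybridised with swapped dyes.

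**Figure D1:**
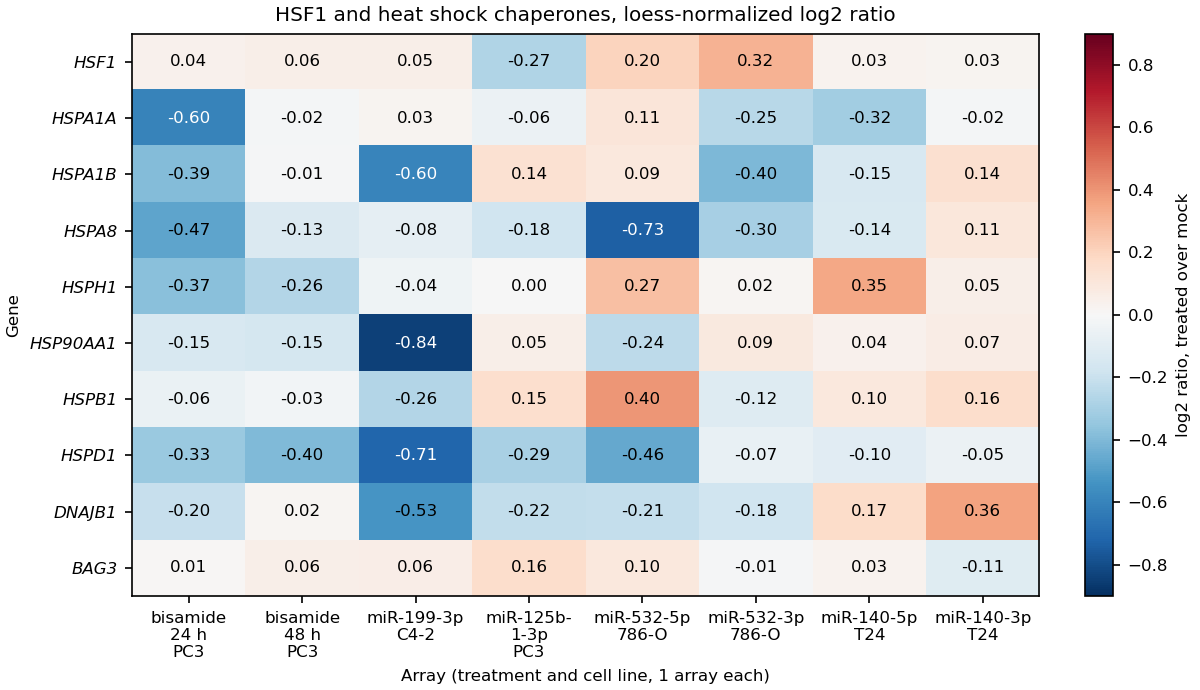
Log2 ratio of treated over mock RNA after loess normalization (colour and printed value) for the 10 genes, in rows, on the 8 arrays, in columns, with 1 array to each treatment. HSPA1A has its lowest value on the bisamide array of 24 h, at −0.60, and 4 genes lie below −0.5 on the miR-199-3p array in C4-2, down to −0.84 for HSP90AA1.

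With miR-199-3p in C4-2, another set of chaperones was lower. HSP90AA1 was at −0.84, a 1.79-fold difference, and its other probes were at −0.90 and −1.02. HSPD1 was at −0.71, HSPA1B at −0.60 and DNAJB1 at −0.53. These 4 genes passed 0.5 downwards, where 2.73% of the 15689 genes measured did, and no member passed it upwards, where 1.76% did. Of all genes on this array, 0.867% had a lower ratio than HSP90AA1 and 1.24% a lower one than HSPD1.

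HSPA1A was at 0.03 on the same array, with 8 spots kept between −0.11 and 0.09. Its raw signals there were low, 29.0 in Cy3 and 31.0 in Cy5, against medians of 22.7 and 18.8 over the spots of the array. With normexp without offset its ratio was 0.15. Signals this near background cannot show whether HSPA1A changed. HSPA8 was at −0.08, HSF1 at 0.05 and BAG3 at 0.06. The probes of 2 genes were spread widely here. HSPB1 gave −0.26 by its brightest probe, −0.78 by a second probe and −0.02 by the third, and HSPH1 gave −0.04 and −0.43. The members' median was −0.17, beside 0.01 over all genes. Under median centring, which moved the median of all genes to 0.30, the 4 genes turned to values above 0, from 0.0049 for DNAJB1 to 0.26 for HSPA1B. Set against that shift all 4 stayed below the median of all genes, at −0.04 for HSPA1B, −0.12 for HSPD1, −0.26 for HSP90AA1 and −0.30 for DNAJB1.

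With miR-125b-1-3p in PC3 the members lay between −0.29 and 0.16. HSPD1 was at −0.29, HSF1 at −0.27 and DNAJB1 at −0.22, while BAG3 was at 0.16, HSPB1 at 0.15 and HSPA1B at 0.14. The HSF1 value was the lowest of that gene on any array, and all 3 of its probes were below 0 there, at −0.27, −0.32 and −0.20. HSPA1A was at −0.06. None passed 0.5, where 0.883% of all genes were lower and 1.78% higher, and the median was −0.03. Under median centring no member lay below the median of all genes. HSPD1, HSF1 and DNAJB1 were then at 0.20, 0.15 and 0.0081 from it.

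The miR-532 arrays in 786-O gave unlike values for several members after loess. HSPA8 was at −0.73 with miR-532-5p, a 1.66-fold difference, and at −0.30 with miR-532-3p. HSPD1 was at −0.46 and −0.07, and HSPB1 at 0.40 and −0.12. HSPA1B was at 0.09 and −0.40, and HSPA1A at 0.11 and −0.25. HSF1 was above 0 on both, at 0.20 and 0.32, and its second bright probe gave 0.19 and 0.28. Under median centring, set against the median of all genes, HSPB1 was at 0.43 and 0.45 on the 2 arrays, and HSPD1 at −0.41 and 0.56.

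On the miR-532-5p array HSPA8 alone passed 0.5 downwards, where 3.67% of the 15666 genes measured did, and none passed it upwards, where 3.59% did. With HSP90AA1 the brightest probe was at −0.24 and the others at −0.50 and −0.51. Under median centring the median of all genes was −0.03 on this array, nearest 0 of the 8, and HSPA8 was at −0.82. On the miR-532-3p array no member passed 0.5, where 3.84% of all genes were lower and 1.72% higher. HSF1 had a ratio above 93.2% of genes there. The members' medians were 0.10 and −0.09.

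In T24 the members lay between −0.32 and 0.36 on both arrays. With miR-140-5p, HSPH1 was at 0.35, and its other probe at 0.41, DNAJB1 was at 0.17, and HSPA1A was at −0.32 with spots between −0.36 and −0.22. With miR-140-3p, DNAJB1 was at 0.36, HSPB1 at 0.16 and HSPA1B at 0.14, while BAG3 was at −0.11. None passed 0.5 on either array. With miR-140-5p 2.89% of all genes were lower and 1.74% higher, and with miR-140-3p 1.09% were lower and 0.998% higher. The medians were 0.03 and 0.06.

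**Figure D2:**
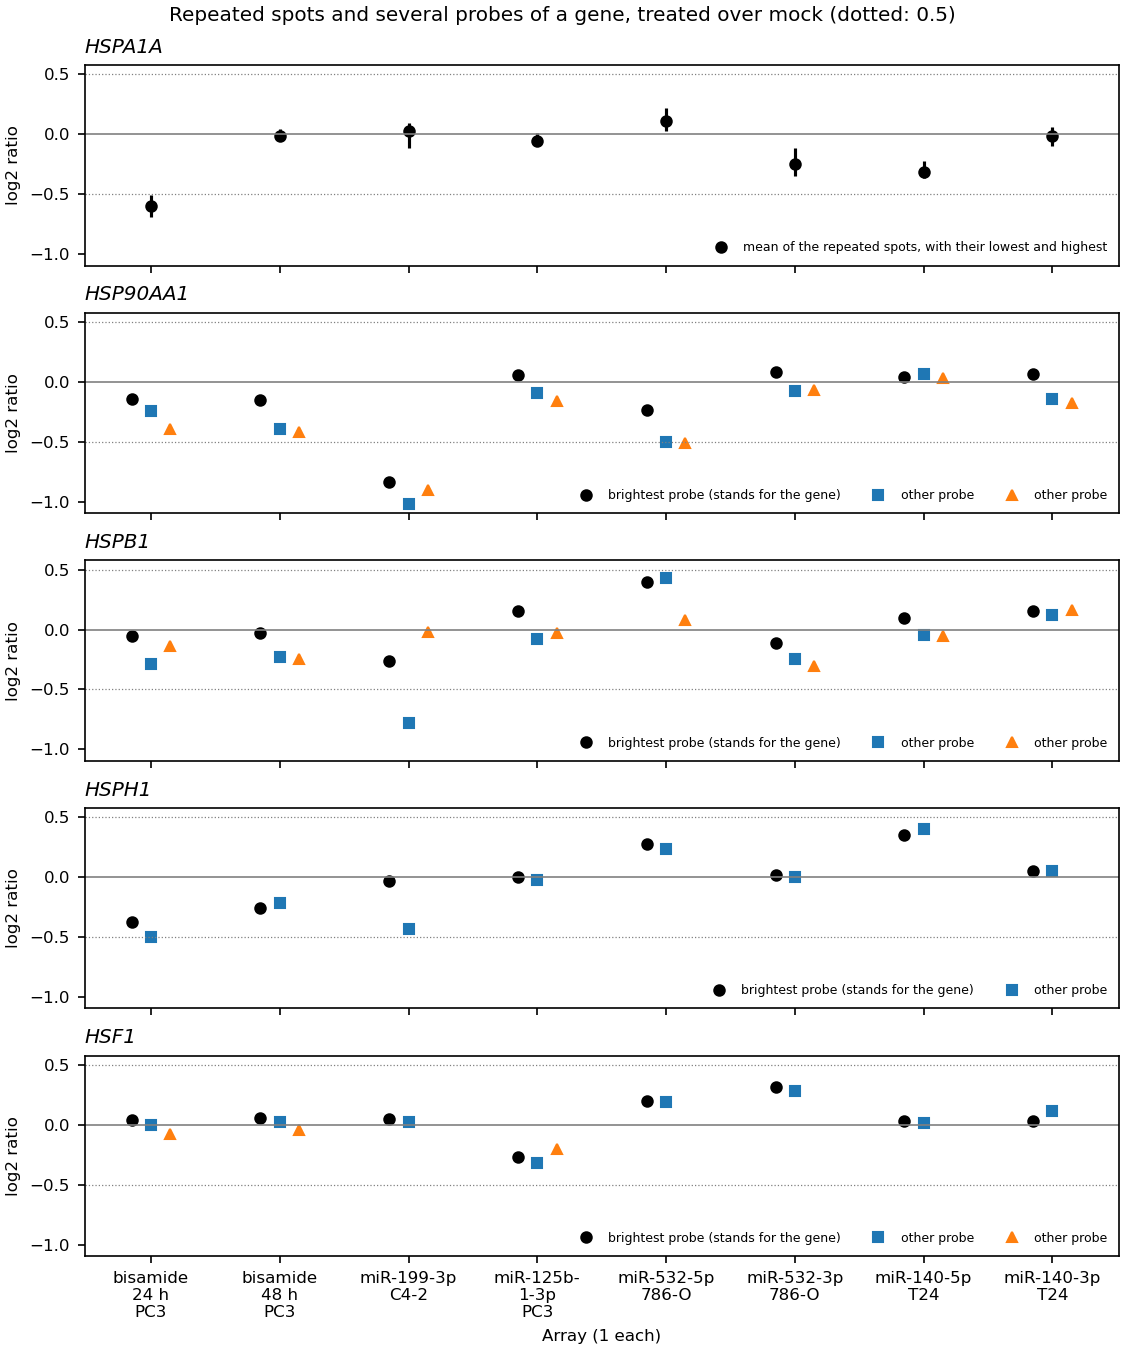
Log2 ratio of treated over mock RNA on each array for HSPA1A (mean of its repeated spots with the lowest and highest spot) and for each probe of the genes with several probes (circle, the brightest probe; square and triangle, the others). The HSPA1A spots at 24 h of bisamide stand apart from those at 48 h, and the HSPB1 probes on the miR-199-3p array reach from −0.78 to −0.02.

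Taken gene by gene over the 8 arrays, HSPD1 was the only member with all 8 ratios below 0, from −0.71 to −0.05 with a median of −0.31. This rests on the processing, since HSPD1 was above 0 on 3 arrays with normexp without offset and on 2 with plain subtraction, and under median centring it lay above the median of all genes on 6 of 8. HSPA8 was below 0 on 7 arrays, from −0.73 to 0.11. HSF1 was above 0 on 7 arrays, from −0.27 to 0.32, and BAG3 on 6, in the narrowest range, from −0.11 to 0.16. The BAG3 range was wider under other processing, from −0.21 to 0.21 with normexp without offset and −0.18 to 0.26 with the scanner's ratio. Its mock signals outside PC3 were dim, at 61 to 109 in raw Cy3. Standard deviations over the arrays ran from 0.08 for BAG3 to 0.31 for HSP90AA1. HSPA1A was further from 0 with bisamide at 24 h than with any miRNA, −0.60 against −0.32 to 0.11, whereas all other members except HSPH1 had their lowest ratio on a miRNA array. HSPH1 was below every miRNA array at both times of bisamide, at −0.37 and −0.26 against −0.04 to 0.35, by the probe that stands for it. Its other probe reached −0.43 on the miR-199-3p array.

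Among genes with several probes, all probes above background had the same sign on 8 of 8 arrays for HSPH1, on 6 of 8 for HSF1 and HSPB1 and on 5 of 8 for HSP90AA1. Pairs of members were also set against each other over the 8 arrays, which share their slide and, in part, their cell lines. HSP90AA1 and HSPD1 had the highest Pearson correlation, 0.914, followed by HSPA1B and HSPB1 at 0.847 and HSPD1 and DNAJB1 at 0.77. HSF1 had correlations from −0.416 with BAG3 to 0.145 with HSPH1, and HSPA1A had 0.432 with HSPA1B. Each value describes 8 points. HSP90AA1 and HSPD1 were both lowest on the miR-199-3p array, at −0.84 and −0.71, and HSP90AA1 lay between −0.24 and 0.09 on the other arrays. How far their correlation rests on that 1 array was not tested.

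The pattern of each member was compared with that of 9953 other genes measured on all arrays. EIF4E, the cap-binding translation factor, was most like HSP90AA1, at 0.987, followed by SUMO2 at 0.984. TFAM, a factor of mitochondrial DNA, was most like HSPD1, at 0.971, and RELT was most like HSPH1, at 0.977. PTBP1 was most like HSPA8, at 0.955, and CEP41 most like HSF1, at 0.952. HSPA1A had the least alike leading gene, SEPT7-AS1 at 0.885. Each of these is the highest of 9953 correlations over 8 arrays, or the one after it for SUMO2, and describes these arrays alone.

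**Figure D3:**
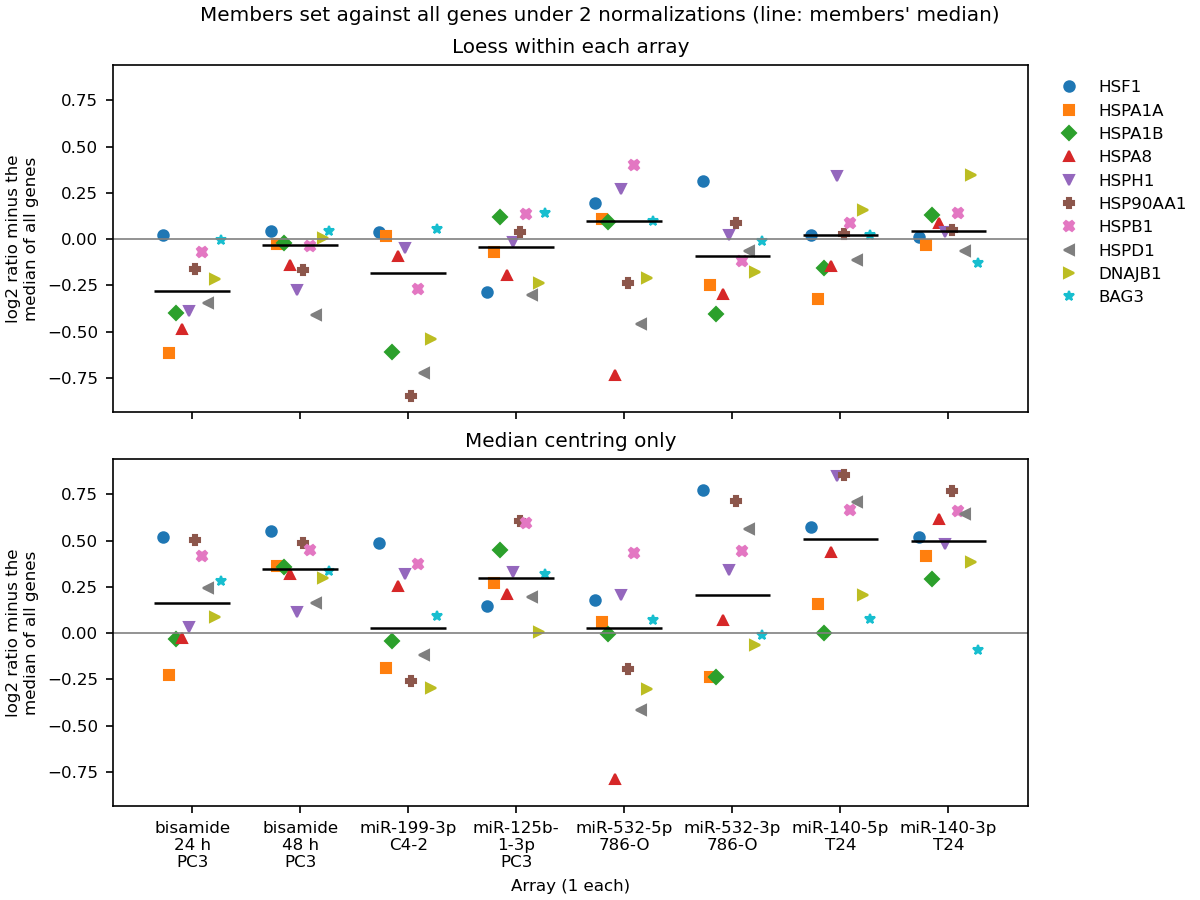
Log2 ratio of each member minus the median of all genes on that array, after loess (upper panel) and after median centring alone (lower panel), for the 8 arrays in columns, with the members' median as a line. Most members lie above 0 in the lower panel, and HSPA1A at 24 h of bisamide and HSPA8 with miR-532-5p lie below 0 in both.

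Over all arrays, the median of all genes lay between −0.03 and 0.45 under median centring. Against it, members changed sides relative to loess on every array. On the miRNA arrays these were 6 in PC3 and 4 in C4-2. In 786-O they were 1 for the 5p and 3 for the 3p strand, and in T24 they were 4 for the 5p and 2 for the 3p strand. Members below the median of all genes under both corrections numbered 3 at 24 h of bisamide, 4 with miR-199-3p and 4 on each miR-532 array, 1 with miR-140-3p and none elsewhere. Only HSPA8 with miR-532-5p lay more than 0.5 below it under median centring. On the 6 miRNA arrays, median centring put 8 to 931 of all genes below −0.5 and 366 to 7875 above 0.5.

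The other genes of the pathway were taken from 7 lists with 74 genes in all: further HSP70 and HSP110 genes, HSP90 with its co-chaperones, DnaJ genes, small heat shock proteins, chaperonins, BAG and other stress-induced genes, and factors and regulators. With bisamide for 24 h, 65 of the 74 were measured, at a median of −0.10, with 47 below 0 (72.3%, against 45.8% of all genes). Under median centring their median was 0.58, above the 0.45 of all genes, so this direction rests on the dye correction. Among the 65, 1 passed 0.5 after loess, upwards as 1.05% of all genes did: HMOX1, the stress-induced haem oxygenase, at 0.67. The 9 chaperonins measured, HSPE1 and subunits of the ring complex that folds actin and tubulin, were all below 0 at a median of −0.21, and again all below 0 at 48 h at −0.22. All 9 were below 0 with miR-532-3p too, at −0.23. So were 8 of 9 with miR-532-5p and with each miR-140 strand, and 7 of 9 with miR-125b-1-3p. With miR-199-3p 3 of the 8 measured were. Under median centring the median of the chaperonins was 0.68 at 24 h of bisamide, above the 0.45 of all genes. At 48 h it was 0.67 against 0.44. On the miRNA arrays it was above that of all genes too, except with miR-532-5p, at −0.40 against −0.03. Where their median was below 0 after loess, its direction thus also rests on the dye correction, apart from miR-532-5p.

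With bisamide for 48 h, 66 were measured at a median of −0.07, with 50 below 0 (75.8%, against 45.8% of all genes). Here too the median under median centring, 0.58, was above the 0.44 of all genes. HSP90B1, the HSP90 of the endoplasmic reticulum, was at −0.73 and PIR, the protein that bisamide was used against, at −0.62, and these 2 alone passed 0.5, downwards as 0.878% of all genes did. PIR had been at −0.45 at 24 h. Under median centring both were above 0 but below the median of all genes, at −0.15 and −0.28 from it.

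With miR-199-3p 62 were measured, and 3 passed 0.5 downwards and none upwards, where 2.73% and 1.76% of all genes did. HSPA6, a strictly inducible HSP70, was at −0.56 and the ubiquitin gene UBB at −0.54, and under median centring HSPA6 lay at −0.29 and UBB at 0.05 from the median of all genes. With miR-125b-1-3p, PTGES3, the co-chaperone p23, was at −0.86 and HSPA5, the HSP70 of the endoplasmic reticulum, at 0.61. They were the 1 lower and 1 higher of 67 measured, where 0.883% and 1.78% of all genes passed.

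On the miR-532-5p array 9 of 62 passed 0.5 downwards and 3 upwards, where 3.67% and 3.59% of all genes did. MRPL18, a mitochondrial ribosomal protein whose messenger also makes a cytosolic form under heat, was at −2.09, and AHSA1, the activator of the HSP90 ATPase, at −0.96. HMOX1 was at 2.74 on that array and at 2.60 on the miR-532-3p array, where HSP90B1 was at −1.77 and CCT7 at −0.63. The chaperonins had a median of −0.40 with miR-532-5p, and −0.40 under median centring as well, with 8 of 9 below 0, where 49.9% of all genes were. With miR-532-3p 4 of 61 were lower and 1 higher, where 3.84% and 1.72% of all genes were. With miR-140-5p 4 of 63 were lower and none higher, where 2.89% and 1.74% of all genes were, led by BAG2, a co-chaperone that blocks client ubiquitination, at −1.09, PIR at −0.73 and DNAJB5 at −0.56. PIR was at 0.66 with miR-140-3p, where CCT4 was at −0.77 and no other gene of the 64 measured passed 0.5, where 1.09% of all genes were lower and 0.998% higher.

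**Figure D4:**
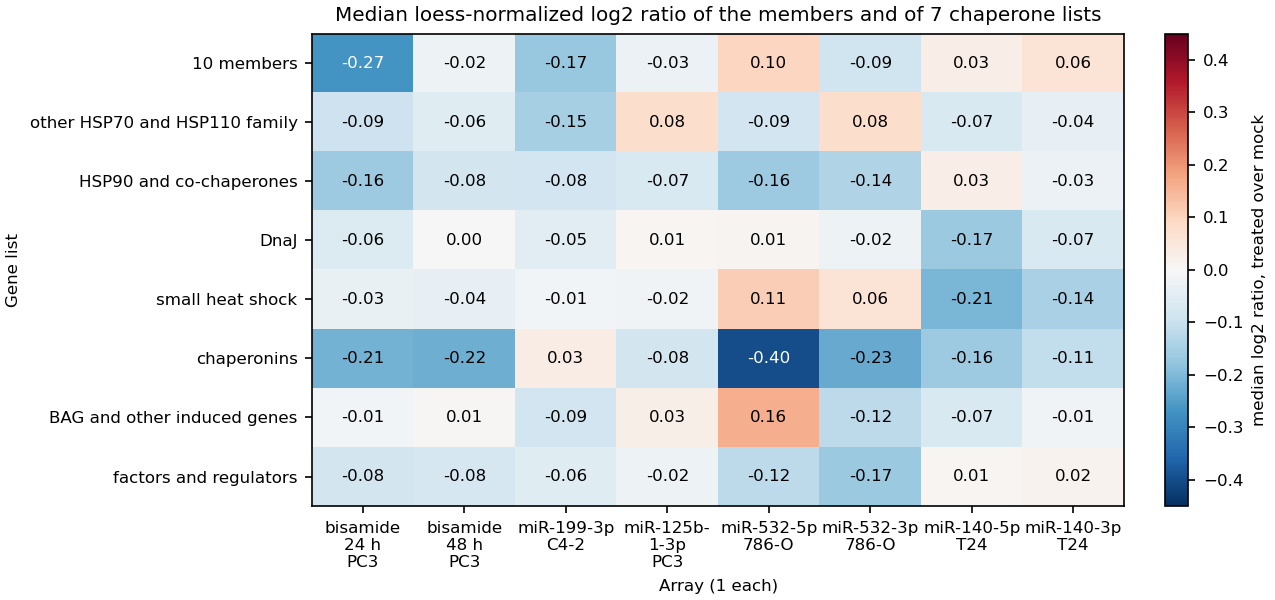
Median log2 ratio of treated over mock RNA after loess (colour and printed value) for the 10 members and for 7 lists of other chaperone and stress genes, in rows, on the 8 arrays, in columns. The members are lowest with bisamide at 24 h, at −0.27, and the chaperonins with miR-532-5p, at −0.40.

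The Cy3 channel of the arrays also gave the level of each gene in mock cells of the 4 lines. The levels are log2 intensities after quantile normalization and compare lines for 1 probe, not 1 gene with another. PC3 had 3 mock samples, C4-2 had 1, and the 2 mock arrays of 786-O and of T24 were each averaged to 1 sample because their files carry the same mock code. A limma model over all 20454 genes tested compared the 6 pairs of lines. Its spread comes from the 3 PC3 mocks, the other lines are assumed to vary like them, and the p-values measure only the spread between these samples, which may be technical.

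HSPA1A and HSPA1B spanned the widest ranges between lines, with T24 and C4-2 at opposite ends for both genes. HSPA1A was highest in T24, at 10.61 and 10.65, followed by PC3, at 10.56, 10.14 and 10.29, whose mean did not pass the test against T24 (difference −0.31, limma adjusted p = 0.288). It was at 7.23 and 7.23 in 786-O and lowest in C4-2, at 6.09. The level in PC3 was 8.56-fold that in 786-O (limma adjusted p = 0.00296) and 18.8-fold that in C4-2 (adjusted p = 0.00108). The size rests on the background step. The fold of PC3 over C4-2 was 35.8 with no background correction and 90.7 with the scanner's processed signal, and that over 786-O was 14.7 with the scanner's signal and 13.5 with 75th percentile scaling. Neither low line overlapped with T24 or PC3.

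HSPA1B was highest in C4-2, at 12.82. PC3 followed, at 10.24, 9.98 and 9.98, then 786-O, at 8.91 and 8.93, and T24, at 7.71 and 7.70. All 6 pairs of lines passed the test. C4-2 was 6.74-fold above PC3 (limma adjusted p = 0.0013) and 34.6-fold above T24 (adjusted p = 0.00107). With the scanner's processed signal the latter fold was 68.3, and that of C4-2 over PC3 10.3. T24 was thus at the top for HSPA1A, not separated from PC3 by the test, and at the bottom for HSPA1B, while C4-2 was at the bottom for HSPA1A and at the top for HSPA1B.

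HSPA8 was at 11.38 in T24, 11.30 ± 0.17 (SD, n = 3) in PC3, 10.97 in 786-O and 10.25 in C4-2, by the means of their mocks. C4-2 was lower than each of the other lines (limma adjusted p of 0.0101 against PC3, 0.017 against T24 and 0.0491 against 786-O), and T24, PC3 and 786-O did not pass the test against each other. HSPH1 lay between 10.35 and 10.55 in all 4 lines, and no pair passed. The PC3 mocks of HSPH1 alone spanned 0.63.

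HSPB1 was at 13.57 in C4-2, 12.91 in 786-O, 11.71 ± 0.34 in PC3 (SD, n = 3) and 11.26 in T24. C4-2 was 3.62-fold above PC3 (limma adjusted p = 0.0121) and 4.96-fold above T24 (adjusted p = 0.0147), while the neighbours in that order, C4-2 and 786-O (adjusted p = 0.217) and PC3 and T24 (adjusted p = 0.303), did not pass, and 786-O and PC3 did (adjusted p = 0.0447, a call that held under 5 of 9 alternatives, with the difference of PC3 minus 786-O at −0.37 under 75th percentile scaling). DNAJB1 was at 9.34 in C4-2, 8.99 ± 0.20 in PC3 (SD, n = 3), 8.22 in 786-O and 6.84 in T24. Its level in C4-2 was 5.63-fold that in T24 (limma adjusted p = 0.00457), C4-2 and PC3 did not pass (adjusted p = 0.174), and the other 4 pairs did.

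HSF1, whose protein is mostly controlled by its state rather than its amount, was at 11.72 ± 0.07 in PC3 (SD, n = 3), 11.59 in 786-O, 11.41 in C4-2 and 11.13 in T24. PC3 was 0.59 on the log2 scale above T24 (limma adjusted p = 0.0142) and 1.24-fold above C4-2 (adjusted p = 0.0409), and 786-O was 1.38-fold above T24 (adjusted p = 0.0446). The last difference turned to −0.06 when arrays were scaled to their 75th percentile instead. C4-2, with 1 sample, held the highest HSPA1B, HSPB1 and DNAJB1 signals of the 4 lines and the third for HSF1.

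HSP90AA1 was highest in PC3, at 14.34, 13.80 and 13.96, and lay between 13.18 and 13.39 in the other lines. HSPD1 lay between 13.03 in PC3 and 13.49 in 786-O. No pair passed for either, and the smallest was PC3 against C4-2 for HSP90AA1 (limma adjusted p = 0.0524). BAG3 was at 8.88 and 8.82 in the PC3 mocks of the bisamide arrays and at 7.85 in that of the miR-125b-1-3p array, and at 6.96 to 7.23 in the other lines. No pair passed for BAG3 (limma adjusted p of 0.0815 for PC3 against 786-O). The difference passed under 5 of 9 alternatives against C4-2, 5 against 786-O and 4 against T24. Among these is the fit without the PC3 mock of the miR-125b-1-3p array. Its spread comes from the near-equal PC3 values 8.88 and 8.82 alone, so passing there adds no support. All 3 PC3 values lay above all others. What set the miR-125b-1-3p mock apart from the other PC3 mocks was not tested.

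**Figure D5:**
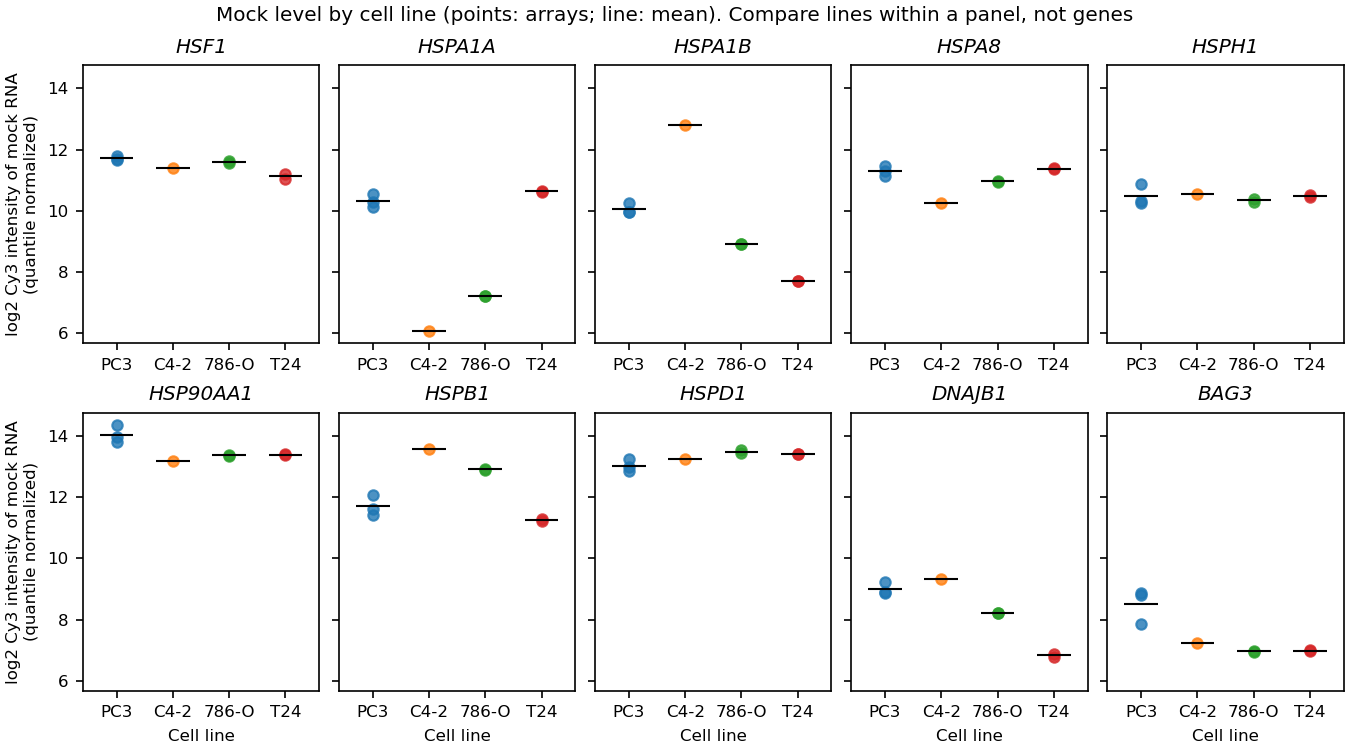
Log2 Cy3 intensity of mock RNA after quantile normalization for each member, 1 panel a gene, by cell line; points are arrays (PC3 3, C4-2 1, 786-O 2, T24 2) and lines their means. T24 is the highest line for HSPA1A and the lowest for HSPA1B, C4-2 the reverse, and the line means of HSPH1 lie between 10.35 and 10.55.

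Counts of members past the test are read against those of all genes. Between PC3 and C4-2, 3 members were higher in PC3 and 2 in C4-2, where 23.1% of genes were higher and 27.5% lower in PC3. Against 786-O, 3 were higher in PC3 and 1 lower (17.2% and 20% of genes), and against T24, 3 were higher in PC3 and none lower (14.2% and 18.2%). C4-2 had 2 higher and 2 lower than 786-O (21.3% and 19.3%) and 3 higher and 2 lower than T24 (21.4% and 19.9%). In 786-O 4 were higher and 1 lower than in T24 (12.7% and 12.5%). Each pair thus had 3 to 5 of the 10 members past the test, where 25.2% to 50.6% of all genes were. Of the 26 member calls, 15 held under all 9 alternatives. The HSF1 call between PC3 and C4-2 held under 3, that between 786-O and T24 under 2, and the HSPA8 call between C4-2 and 786-O under 3. Both HSPB1 calls of 786-O, against PC3 and against T24, held under 5, and the other 6 under 7 or 8. Without the PC3 mock of the 48 h bisamide array, 2 members passed between PC3 and 786-O and 1 between 786-O and T24, and without that of the 24 h array 3 passed between 786-O and T24. Scaling arrays to the 75th percentile moved the split of all genes. With it 6842 genes were higher and 5209 lower in PC3 than in 786-O, against 3514 and 4100. In C4-2, 2843 were higher and 5036 lower than in T24, against 4379 and 4077, and in 786-O 1516 were higher and 4597 lower than in T24, against 2606 and 2552. Of the 67 genes of the 7 lists tested, 18 were higher and 16 lower in PC3 than in C4-2, and 5 were higher and 10 lower in PC3 than in T24, the pairs with the most and the fewest.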

How the data were processed

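RNA of treated cells (Cy5) and of mock cells (Cy3) was compared on 8 two-colour Agilent arrays of 1 slide, with 1 array to each treatment. Each array's group is the transfection its labels name. The authors quantified the scans with Agilent Feature Extraction 11.5.1.1, per the file headers. The deposited files hold the mean intensity of each spot and a median local background intensity, both linear. They also hold the scanner's log10 ratio of Cy5 over Cy3, and the deposited series table held the same log10 values. From the intensities, log2 ratios were computed here with limma 3.58.1 in R 4.3.3, by normexp background correction (offset 50) and loess within each array. Correction on the dye scale can shift bright genes, so median centring was run beside it. Control spots and outlier spots were left out, and spots of a probe were averaged. The brightest probe stood for a gene. Genes above background in Cy5 and in Cy3, by the scanner's test, were measured, and those past 0.5 in log2 ratio were counted. The number of arrays limits the precision.

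Mock Cy3 intensities were corrected by normexp, quantile normalized and tested with limma (lmFit, eBayes, Benjamini-Hochberg, two-sided, adjusted p under 0.05) for 6 pairs of lines. The steps were tested on simulated data. Alternatives were other background corrections, median centring, the scanner's ratio, other thresholds, the mean over probes, each array against the others, 75th percentile scaling, no filter on dim genes, repeat mock readings kept apart, and leaving out each PC3 mock. The named genes are the 10 members. Of the other pathway genes, those past 0.5 on a bisamide array and at most the 3 largest past 0.5 on each miRNA array are named, beside lists given as counts. Genes most like a member were ranked by Pearson correlation over the 8 arrays. The members and lists were chosen with earlier results of these data known. Promoter and miRNA sequences are RefSeq's, for GRCh38.p14. Sequence of HSF1 is not used here, and some list and marker genes are not reported here.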

Additional observations from a re-analysis of the deposited data

How the results depend on the processing

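No paired analysis was possible because each treatment had 1 array and the replicate numbers of the PC3 mocks pair no samples. Median centring changed the ratios most. The members' median became 0.61 and 0.78 with bisamide at 24 and 48 h, 0.33 in C4-2, 0.72 for miR-125b-1-3p, −0.0035 and 0.38 in 786-O (miR-532-5p, then miR-532-3p), and 0.86 and 0.95 in T24 (miR-140-5p, then miR-140-3p). Members above 0.5 then numbered 6, 10, 4, 9, 5, 8 and 9 on these arrays, miR-532-5p apart, and those below −0.5 numbered 0 at 24 h and in C4-2. Of all genes, 8643 of 19248, 8352 of 19023, 4479 of 15689, 7696 of 18691, 2511 of 15440, 6293 of 17633 and 7875 of 17539 were above 0.5 on the same arrays. Below −0.5 were 5 at 24 h and 91 in C4-2. Median centring turned HSPA1A at 24 h to 0.22 and, with miR-199-3p, HSPA1B to 0.26, HSP90AA1 to 0.045, HSPD1 to 0.18 and DNAJB1 to 0.0049. By its construction this alternative leaves any dye difference along the intensity scale in place.

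The scanner's ratio and the series table gave a median of −0.34 at 24 h and 0.17 with miR-532-5p. Normexp without offset gave 0.16 and −0.033 in 786-O, and plain subtraction 0.16 and −0.032. The mean over probes gave −0.072 at 48 h and −0.29 with miR-199-3p. Set against the median of other arrays, the medians were −0.19 at 24 h and 0.012 at 48 h of bisamide (4 members below 0 at 48 h, against 7), 0.012 for miR-125b-1-3p, −0.024 for miR-532-3p, and 0.080 and 0.20 in T24, with 2 members lower for miR-199-3p and 1 higher for miR-140-3p. By that measure 493 of all 15689 genes were lower with miR-199-3p and 159 of 17539 higher with miR-140-3p. Plain subtraction also gave 1 member higher with miR-140-3p, where 684 of all genes were. With miR-532-5p, 2 members were lower under plain subtraction, no correction, the scanner's ratio and the series table. Of all 15666 genes on that array, 1939, 1061, 2333 and 2333 were lower under these. Past thresholds of 1 and 1.5 there were 0 members at 24 h of bisamide, 0 in C4-2 and 0 on the miR-532-5p array. The other causes were not tested. Without the offset of 50, or with the scanner's ratio, more of all genes passed 0.5: with miR-199-3p 1359 and 1692 were lower, against 429, and with miR-532-5p 1964 and 2333, against 575.

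Between mocks, members called for PC3 against 786-O were 8 with all arrays as separate samples, 8 with 75th percentile scaling and 2 with all genes tested, against 4. Of all genes, 61.4%, 58.9% and 16.6% were called under these settings, against 37.2%. Separate samples treat arrays with the same mock code as independent. For PC3 against T24, 6 members were called with separate samples, against 3, where 56.3% of all genes were, against 32.4%. For C4-2 against 786-O, 2 members were called with 75th percentile scaling, against 4 (4808 of all genes, against 8309). For 786-O against T24, members called were 2 with 75th percentile scaling and 3 with all genes tested, against 5. Of all genes, 29.9% and 11.2% were, against 25.2%. Scaling also turned the HSF1 difference of that pair to −0.061. Leaving out a PC3 mock gave 4 to 6, 2 to 5, 2 to 4, 3 to 4, 5 to 6 and 1 to 5 members called over the 6 pairs in the order of the report. The lowest counts for PC3 against 786-O and for 786-O against T24, 2 and 1, came without the mock of bisamide at 48 h, and 3 for the latter without that of 24 h. With these mocks left out, the genes called between 786-O and T24 fell to 1750 and 1870, against 5158.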
